A study of Rattus norvegicus with 12 samples.

Results

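rno-miR-10a-5p and rno-miR-100 are 2 rat miRNAs of related sequence that come from separate loci, and both were lower after chronic ethanol feeding in Kupffer cells, which are macrophages that reside in the liver. They were selected on measured values, as 2 of the 30 miRNAs that the authors listed for a decrease of 2-fold or more with ethanol feeding in basal cells. The size and direction of that difference are therefore given as a description, with no test. The cells were primary Kupffer cells from adult male Wistar rats that were given a Lieber-DeCarli liquid diet with ethanol, or were pair-fed a control diet with maltose dextrin in place of ethanol, for 4 weeks. The basal cells of both groups were cultured without HA35, a hyaluronic acid fragment used elsewhere in the study. Small RNA was sequenced in 3 libraries from pair-fed and 3 libraries from ethanol-fed rats, among 12 libraries in 4 groups. The labels number the libraries of a group by day, used here as the replicate number, without telling how many rats went into one day's cells, so the spread between libraries may be partly technical. The list of miRNAs raised by HA35 in ethanol-fed cells has 3 entries, and neither miR-10a-5p nor miR-100 is among them.

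A miRNA guides the Argonaute protein to mRNAs by pairing of its seed, the bases from position 2 to position 8 at the 5′ end, and pairing lowers the output of the mRNA. The miR-10, miR-99 and miR-100 miRNAs are an old animal family. miR-10a and miR-10b lie in Hox gene clusters, and the Hox mRNAs are among their known targets in vertebrates. In mouse and human endothelium, miR-10a is known to restrain NF-κB driven inflammatory gene expression. The branch of miR-99 and miR-100 is known to target the growth kinase mTOR in mammalian cells, and its loci also carry let-7 and miR-125. Both branches are abundant in endothelial and mesenchymal cells, which lie next to Kupffer cells in the liver sinusoid.

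The mature sequences, from RefSeq (rat build GRCr8), show what the 2 miRNAs share and where their seeds part. Sequences were found for 4 of the 5 family members looked for, with none for miR-99a-5p. The seed is in capitals and each is written 5′ to 3′:
miR-10a-5p: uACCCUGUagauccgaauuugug
miR-100-5p: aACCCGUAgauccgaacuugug
miR-99b-5p: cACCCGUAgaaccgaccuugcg
miR-10b-5p: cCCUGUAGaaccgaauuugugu
The table lists miR-100 with no arm, and it was read here as miR-100-5p, the arm that carried the unstarred name.

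miR-10a-5p (23 bases) and miR-100-5p (22 bases) have 20 aligned bases in common. Counted from the 5′ end of miR-10a-5p, they differ by the substitutions U1A and U18C and by U6, a base that miR-100-5p lacks. The missing base lies inside the seed. The seeds thus begin alike and then run out of register, with 4 of their 7 positions equal, and the sites that they match in an mRNA are written ACAGGGU for miR-10a-5p and UACGGGU for miR-100-5p. The 2 miRNAs are therefore relatives with different seeds rather than a single seed family. After the missing base they run together for 11 bases, guagauccgaa. Among 693 mature names in the RefSeq table, the seed of miR-10a-5p belongs to 1, its own, and the seed of miR-100-5p to 2, miR-100-5p and miR-99b-5p. miR-99a-5p had no mature sequence in that source, so whether it shares either seed was not checked. miR-10b-5p is annotated as starting 2 bases further in than miR-10a-5p, so that its seed by position is different from both. miR-10b-5p has 20 aligned bases in common with miR-10a-5p, and differs from it by U12A and at both ends, and miR-99b-5p differs from miR-100-5p by 4 substitutions. The sources used here do not give how reads were divided among such relatives, so the values of both miRNAs are uncertain to that extent.

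In GRCr8, miR-10a-5p lies on the plus strand at chr10:81779730-81779752, and the Mir10a gene stands between Hoxb5 and Hoxb4 with no annotated gene spanning it. miR-100-5p lies on the plus strand at chr8:50798307-50798328, inside the annotated genes Mir100hgl and Lnc215. By position it is followed by Mir3596a, Mirlet7a-2 and Mir125b1. Both mature sequences come from the 5′ arm of their hairpins. No other arm of the 5 family members looked for (miR-10a, miR-10b, miR-99a, miR-99b and miR-100) is in the list of 30. The 4 other miRNAs of the Hox clusters looked for (miR-196a, miR-196b, miR-196c and miR-615) and the 5 cluster mates of the miR-99 and miR-100 genes (let-7a, let-7c, let-7e, miR-125a and miR-125b) are not in it either. Their levels were not analysed here.

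Values are the authors' normalized log2 values, from which the median of each miRNA over the 6 basal libraries was subtracted, so a value of 0 is that miRNA's own median. They compare libraries within a miRNA and carry no information on whether miR-10a-5p or miR-100 was the more abundant. Total reads in the 6 basal libraries ranged from 2865329 to 6151744 and aligned reads from 1630301 to 3805958. Reads per miRNA were not in the tables used, so the counting error of a single value is unknown. Each of the 2 miRNAs had only 1 library at its lowest value, whereas 7 of the 30 listed miRNAs had 2 or more libraries tied there. The labelled cell type could not be checked against its own miRNAs, as none of the 6 leukocyte miRNAs looked for and none of the 3 hepatocyte miRNAs is in a list that holds only lowered miRNAs.

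miR-10a-5p, the Hoxb-cluster member, was at 1.87, 0.14 and 0.68 (normalized log2 value) in pair-fed replicates 1, 2 and 3, and at -0.86, -0.14 and -0.16 in ethanol-fed replicates 1, 2 and 3. Every ethanol-fed library lay below every pair-fed library, and the narrowest gap, between pair-fed replicate 2 and ethanol-fed replicate 2, was 0.28. The mean was 0.90 ± 0.89 (SD, n = 3) with pair feeding, against -0.39 ± 0.41 (SD, n = 3) with ethanol. The difference of -1.29 (standard error 0.56) is a 2.44-fold lower level, and was 1.86 times the pooled SD of the replicates. Of the 30 listed miRNAs, 7 (23.3%) had 2 groups that did not overlap, with ethanol-fed below pair-fed, and miR-10a-5p was among these 7. Because the list was selected on this contrast, nothing is read from that share.

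miR-100, the member from the let-7 and miR-125 locus, was at 2.21, 0.45 and -0.12 in pair-fed replicates 1, 2 and 3, and at 0.12, -0.82 and -0.26 in ethanol-fed replicates 1, 2 and 3. Here the groups overlapped, since ethanol-fed replicate 1 was 0.24 above pair-fed replicate 3. The mean was 0.85 ± 1.22 (SD, n = 3) with pair feeding, against -0.32 ± 0.47 (SD, n = 3) with ethanol. The difference of -1.16 (standard error 0.75) is a 2.24-fold lower level, and was 1.26 times the pooled SD. In a small RNA library from bulk cells, fewer cells of a type that makes the miRNA and less of it per cell cannot be told apart.

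**Figure D1:**
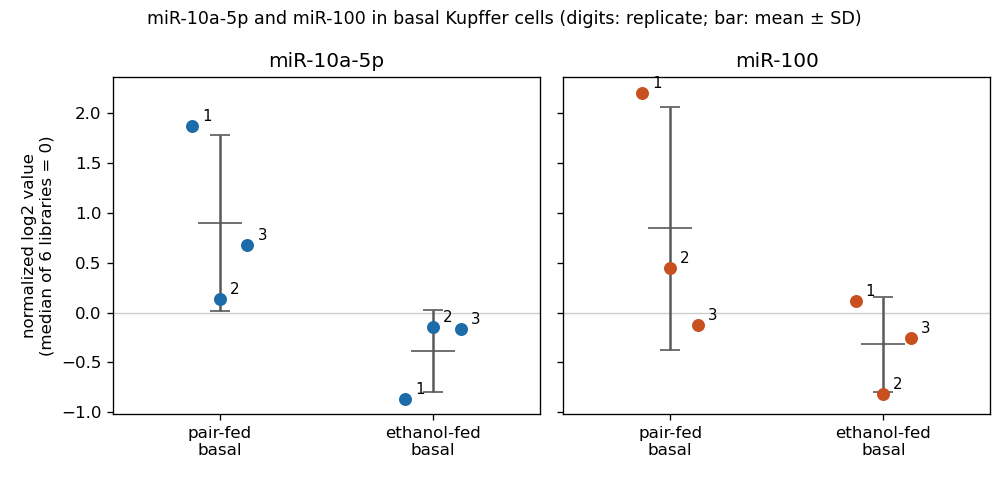
Normalized log2 value (vertical axis, the median of the 6 libraries set to 0) of miR-10a-5p on the left and miR-100 on the right in each pair-fed and ethanol-fed basal library. Points are libraries numbered by replicate and bars are the mean ± SD (n = 3). The groups are separate for miR-10a-5p and overlap for miR-100, where ethanol-fed replicate 1 (0.12) lies above pair-fed replicate 3 (-0.12), and pair-fed replicate 1 is the highest point of both panels.

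Among the 30 listed differences, which ran from -2.30 to -1.02 with a median of -1.30, miR-10a-5p ranked 16th from the most lowered and miR-100 ranked 20th. miR-10a-5p had the 2nd smallest of the 30 standard errors, against a median of 0.88. The standard error of miR-100 was the 10th smallest. At the edge of the list, the members just inside its 2-fold limit were miR-541 at -1.02, miR-214 at -1.02 and miR-143* at -1.03. miRNAs just outside it were not analysed here.

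When same-numbered libraries were set against each other, both miRNAs were lower with ethanol feeding on each of the 3 days. The labels do not say that same-numbered libraries of the 2 groups were prepared together, so this pairing is assumed. For miR-10a-5p the within-day differences were -2.74 on day 1, -0.28 on day 2 and -0.84 on day 3. For miR-100 they were -2.09 on day 1, -1.27 on day 2 and -0.13 on day 3. Day 1 thus held the widest difference for both. Days 2 and 3 stood in the opposite order, with miR-10a-5p nearly level on day 2 and miR-100 nearly level on day 3. Over the whole list, 14 of the 30 miRNAs were lower with ethanol on all 3 days.

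The 2 miRNAs were also compared within each library, where anything that scales a whole library cancels. miR-10a-5p minus miR-100 was -0.34, -0.31 and 0.80 in pair-fed replicates 1, 2 and 3. It was -0.99, 0.68 and 0.10 in ethanol-fed replicates 1, 2 and 3. Positive and negative values occurred in both groups, so neither diet set one miRNA steadily above the other relative to its own median. It averaged 0.054 ± 0.65 (SD, n = 3) with pair feeding and -0.070 ± 0.85 (SD, n = 3) with ethanol, a change of -0.12 with a standard error of 0.62. The sign of that change turned when single libraries were left out, to 0.33 without ethanol-fed replicate 1 and 0.25 without pair-fed replicate 3. The change was smaller than its standard error, and it was not tested. Both miRNAs were selected for a decrease with ethanol feeding in these same libraries, so nothing is read from its small size.

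**Figure D2:**
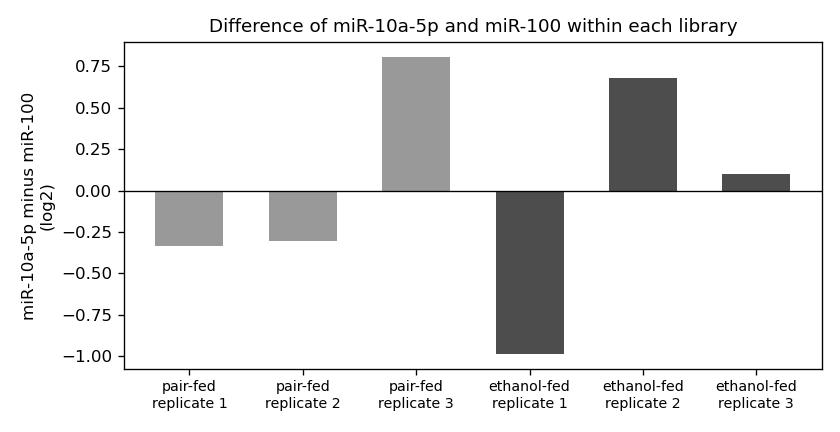
miR-10a-5p minus miR-100 (vertical axis, log2, each miRNA relative to its own median over 6 libraries) in each of the 3 pair-fed (light bars) and 3 ethanol-fed (dark bars) basal libraries. Bars point both ways in both groups, from -0.99 in ethanol-fed replicate 1 to 0.80 in pair-fed replicate 3.

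The likeness of 2 miRNAs was measured as the mean absolute difference of their values over the 6 basal libraries, where 0 is identical. For miR-10a-5p and miR-100 it was 0.54. This placed them 96th of the 435 pairs that the 30 miRNAs form, against a median of 0.84 over all pairs. The 6 pairs that come from a single precursor, whose 2 strands are cut from the same transcript, had a median of 0.46. Those for miR-199a (0.29), miR-126 (0.31) and miR-195 (0.36) were more alike than miR-10a-5p and miR-100, and those for miR-143 (0.56), miR-152 (0.75) and miR-455 (1.04) were less alike. The miRNAs nearest to miR-10a-5p were miR-27b* (0.16), miR-195 (0.23) and miR-23b (0.24), and miR-100 came 12th of its 29 neighbours. The miRNAs nearest to miR-100 were miR-23b (0.38), miR-152 (0.40) and miR-201 (0.43), and miR-10a-5p came 8th. miR-23b, itself 2.24-fold lower, was among the 3 nearest of both. These distances share the same 6 libraries and a list selected for a common direction, and are given as a description.

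miR-10a-5p followed the middle of the list almost library by library. It differed from the median of the other 28 miRNAs by -0.098, 0.13 and 0.32 in pair-fed replicates 1, 2 and 3, and by -0.032, 0.0013 and -0.097 in ethanol-fed replicates 1, 2 and 3. miR-100 strayed further. It differed from that median by 0.24, 0.44 and -0.48 in the pair-fed and by 0.95, -0.68 and -0.19 in the ethanol-fed libraries, in the same order. By value relative to its own median, miR-100 was the 4th highest of the 30 miRNAs in ethanol-fed replicate 1, and miR-10a-5p the 16th. That library was the lowest of the 6, alone or tied, in 21 of the 30 miRNAs, miR-10a-5p among them. It was the highest of the 3 ethanol-fed libraries in 6, namely miR-100, miR-362, miR-3585-3p, miR-34a*, miR-152* and miR-181b-1*. In the pair-fed group, replicate 2 was above replicate 3 in 11 of the 30 miRNAs, miR-100 included and miR-10a-5p not. miR-100 combined both of these orders with only miR-362, miR-3585-3p, miR-34a* and miR-152*.

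**Figure D3:**
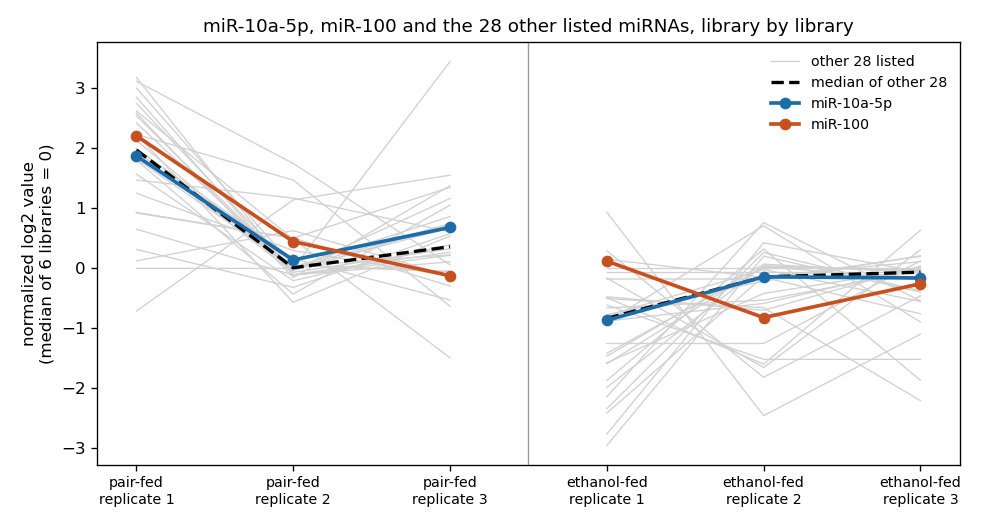
Normalized log2 value (vertical axis, the median of 6 libraries set to 0) in each basal library (horizontal axis) of miR-10a-5p (blue), miR-100 (orange) and the 28 other listed miRNAs (grey lines), with the median of those 28 dashed in black. The blue line stays within 0.32 of the dashed line, while the orange line lies 0.95 above it in ethanol-fed replicate 1 and 0.68 below it in ethanol-fed replicate 2.

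Pair-fed replicate 1 carried much of the difference of both miRNAs. It was the highest of the 6 libraries for 25 of the 30 listed miRNAs, and lay 1.19 above the next library for miR-10a-5p and 1.76 above it for miR-100. Without it, miR-10a-5p was at -0.80 (1.74-fold lower) and miR-100 at -0.48 (1.40-fold lower). Neither was then among the 10 of 30 miRNAs (33.3%) that were still at least 2-fold lower. miR-100 fell short of 2-fold also without ethanol-fed replicate 2, at -0.91 (1.88-fold lower).

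**Figure D4:**
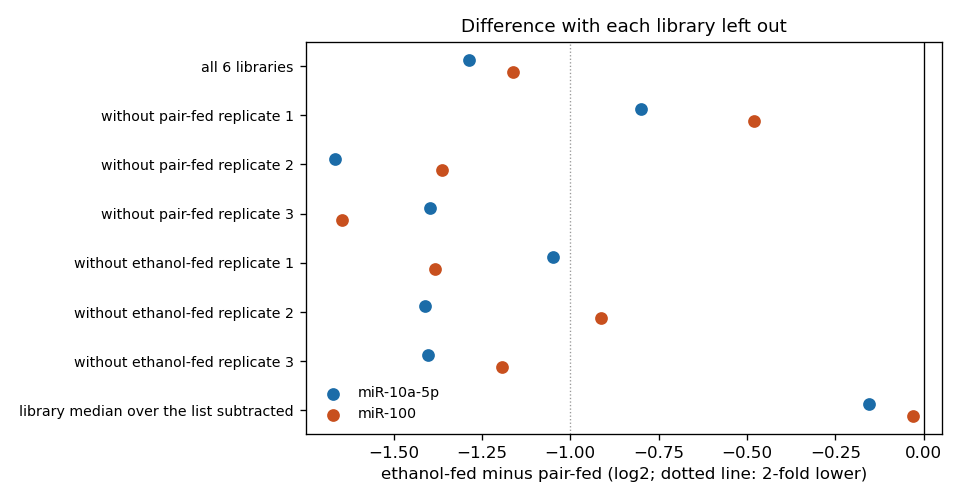
Difference of ethanol-fed and pair-fed means (horizontal axis, log2) for miR-10a-5p (blue) and miR-100 (orange) with all 6 basal libraries, without each library in turn, and after subtracting from each library its median over the 30 listed miRNAs. All points lie below 0. Without pair-fed replicate 1 they are at -0.80 and -0.48, to the right of the dotted line at 2-fold, and after the subtraction they are at -0.15 and -0.030.

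The level of the list as a whole moved with both results. The median of the 30 miRNAs was 1.97, 0.026 and 0.36 in pair-fed replicates 1, 2 and 3, and -0.83, -0.15 and -0.067 in ethanol-fed replicates 1, 2 and 3. Once it was subtracted from each library, the difference was -0.15 (standard error 0.12) for miR-10a-5p and -0.030 (standard error 0.55) for miR-100, and the groups of both overlapped. As every miRNA of the list was selected for being lower, this subtraction also takes away what they have in common. A shift of whole libraries and a shared response of these miRNAs cannot be told apart with the listed miRNAs alone.

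Among the sequencing measures, the share of reads too short to align was 24.8%, 11.7% and 25.9% in pair-fed replicates 1, 2 and 3, and 22.6%, 8.81% and 7.32% in ethanol-fed replicates 1, 2 and 3. Pair-fed replicate 1, the highest library of both miRNAs, and ethanol-fed replicate 1, the lowest library of miR-10a-5p, were both in the upper part of that range. The aligned share was 45.5%, 61.9% and 50.4% in the pair-fed and 50.4%, 56.9% and 56.6% in the ethanol-fed libraries. Their part in the result was not tested.

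Some miRNAs known from endothelial and mesenchymal cells are also in the list. The share of all measured miRNAs that entered it was not analysed here, and every entry is lower by selection, so the counts that follow say only which were listed. Of 9 endothelial miRNAs looked for, 4 were in the list with 5 products: miR-10a-5p and miR-100 themselves, miR-31 (a difference of -1.07), miR-126 (-1.83) and its star strand miR-126* (-1.93). The median of the last 3 was 2.59, -0.15 and 1.05 in the pair-fed and -1.57, -0.21 and -0.0015 in the ethanol-fed libraries. Of 8 mesenchymal miRNAs looked for, 5 were in the list with 7 products, miR-100 among them. The median of the other 6 (both arms of miR-143, both arms of miR-199a, miR-145 and miR-214) was 2.43, -0.11 and 0.24 in the pair-fed and -2.24, 0.14 and -0.22 in the ethanol-fed libraries. The medians of both sets were highest in pair-fed replicate 1 and lowest in ethanol-fed replicate 1. The same held for miR-10a-5p and for the median of all 30 listed miRNAs (1.97 and -0.83). Pair-fed replicate 1 was the highest for 25 of the 30, and ethanol-fed replicate 1 the lowest, alone or tied, for 21. This order is therefore not particular to these sets. Within the mesenchymal set, miR-214 was lowest in ethanol-fed replicate 2 (-1.60), against -0.49 in ethanol-fed replicate 1. miR-100, which stands in both lists, was instead above its own median in ethanol-fed replicate 1. Whether RNA of such cells had a part in either result was not tested.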

How the data were processed

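Small RNA of Kupffer cells was sequenced in 12 libraries, of which the 6 basal ones hold the values used here. The table of miRNAs, as deposited by the authors, holds a normalized log2 value for each library, centred on the median of its miRNA (checked: the row medians are 0 within a tolerance of 1e-06). In the alignment report, the authors deposited other whole-number measures, the reads of each alignment class. HTSeq, DESeq and rn4 are named in the submitters' processing notes, but the sources used here do not give the step that normalized the values. Columns with the authors' own fold changes and p-values were not used. Groups and replicate numbers came from the labels and the feeding time from the study's supplementary text.

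Means, SDs, differences with a pooled standard error, and distances were computed on the deposited log2 values without filter, pseudocount or test (Python 3.11.15, numpy 2.4.6, pandas 2.3.3, matplotlib 3.10.9), and the step was tested on simulated data. The simulated data held no shift of whole libraries, so they bear only on the arithmetic. No test was made because the miRNAs had been selected on the same contrast in the same libraries. Named miRNAs were both members, members of the listed groups, and the 3 nearest to each, with other names chosen after their values were seen. The miRNAs and lists were chosen with earlier results of these data known. Sequences and neighbouring genes came from RefSeq (GRCr8), not the authors' build. Alternatives left out each library or day, used medians, other thresholds, or subtracted the library median of the list.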

Additional observations from a re-analysis of the deposited data

How the results depend on the processing

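With single libraries or whole days left out, the difference of miR-10a-5p (-1.29) ranged from -1.79 to -0.56 and that of miR-100 (-1.16) from -1.68 to -0.48. Both kept their direction, which selection on these same libraries favours, so nothing is read from it. Group medians gave -0.84 and -0.70. After subtraction of the library median over the list they were -0.15 and -0.030, with 0 of the 30 miRNAs free of overlap and 1 at least 2-fold lower. The change of miR-10a-5p minus miR-100 (-0.12) ranged from -0.68 to 0.33 and was 0.40 with medians. Their mean absolute difference (0.54) ranged from 0.44 to 0.62, and was 0.62 as a root mean square. The number of listed miRNAs with no overlap (7) ranged from 8 to 21 when libraries were left out, where fewer libraries overlap more rarely by construction, and the number at least 2-fold lower (30) from 6 to 27. Requiring 3-fold left 9, and 1.5-fold left 30. Paired by day number, an assumed pairing, the mean differences are the same by construction. The SD of the 3 within-day differences was 1.29 for miR-10a-5p and 0.98 for miR-100, with no test. Depth per miRNA is unknown, so no counting interval can be given.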
